A study of Homo sapiens with 2 samples.

Results

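The miRNA hairpins miR-191 and miR-425 lie next to each other within the gene DALRD3 and are read from the same strand. Their 4 mature products, hsa-miR-191-5p, hsa-miR-191-3p, hsa-miR-425-5p and hsa-miR-425-3p (written without the species prefix from here on), were chosen by name out of 2218 mature miRNAs listed. They were measured by small RNA sequencing in K562 cells, a human erythroleukaemia line grown in suspension. For the QKI5 library the cells carried a lentivirus that overexpresses QKI5, an isoform of the RNA-binding protein Quaking that resides in the nucleus, and for the GFP library they carried a GFP lentivirus. There was 1 library in each group, and both came from bulk transduced cells of the same line. The design asks how miRNA levels differ with QKI5, and for this pair whether neighbours on one transcript differ alike.

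A miRNA hairpin is cut out of a longer primary transcript by Drosha and trimmed by Dicer to a short duplex. One strand of the duplex, the guide, is kept by an Argonaute protein and the other is mostly degraded, so that one arm of a hairpin usually dominates. Hairpins that share a primary transcript are transcribed together, while cutting, choice of arm and decay act on each of them separately. In mouse erythroblasts miR-191 is known to decline before enucleation, and both miR-191-5p and miR-425-5p are widely used as reference miRNAs in RT-qPCR. DALRD3 encodes a protein that takes part in methylation of certain arginine tRNAs.

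The sequences that identify 3 of the members are given below from RefSeq on GRCh38.p14, 5′ to 3′, with the seed (bases 2 to 8, which pair with target RNAs) in capitals. They lie on the minus strand of chromosome 3, at chr3:49020672-49020694 for miR-191-5p, chr3:49020631-49020652 for miR-191-3p and chr3:49020159-49020180 for miR-425-3p.
miR-191-5p: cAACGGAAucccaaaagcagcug
miR-191-3p: gCUGCGCUuggauuucgucccc
miR-425-3p: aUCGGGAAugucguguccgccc
The 3 seeds differ from one another. No other mature miRNA among the 2370 names in the RefSeq table had one of these seeds, so none of the 3 has a seed relative there.

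The miR-191 hairpin is shown to place its arms, which are the capitals, with the 5p arm first. It lies at chr3:49020618-49020709 (GRCh38.p14, minus strand) and is 92 bases long.
MIR191 hairpin: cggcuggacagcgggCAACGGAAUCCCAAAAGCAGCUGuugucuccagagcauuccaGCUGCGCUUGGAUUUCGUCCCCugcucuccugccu
The miR-425 hairpin, at chr3:49020148-49020234, follows 383 bases downstream. In GENCODE release 29 both hairpins lie in intron 1 of 4 of the 15 annotated DALRD3 transcripts, and none of the 15 has an exon over them. The other transcripts do not span the hairpins. The miR-191 hairpin also lies in an intron of a transcript of NDUFAF3 on the opposite strand. The QKI recognition hexamer ACUAAC was found on neither strand of either hairpin, and 1.78% of the 674 RefSeq hairpins of 80 to 100 bases hold it on one strand or the other. That count covers only the hairpins and not the rest of the intron.

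The library totals recovered from the deposited values were 6553945 reads for QKI5 and 23262340 reads for GFP, a 3.55-fold gap in depth. The GFP arm counts are therefore the more precise ones. Levels are in RPM, reads per 1000000 reads of the library, and ratios are QKI5 over GFP with exact 95% counting intervals. These intervals, and the floor of 3 reads behind any count of 0, cover counting error only, since reads lacking molecular identifiers need not be independent molecules. No difference has a replicate check and no p-value is given. The overexpression was not checked, because the QKI5 transcript was not analysed here. Of the erythroid and myeloid miRNAs listed for K562, all 5 were present in both libraries at 293 RPM or more. Of the 6 markers of other cell types measured, the epithelial miR-200c-3p and miR-141-3p lay between 25.2 and 41.7 RPM, and the rest had at most 6 reads in a library. In bulk RNA, fewer cells with a miRNA and less of it per cell cannot be told apart.

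All 4 members had reads in both libraries. The 5p arms were abundant, and the 3p arms were rare companions. miR-191-5p, the guide arm of its hairpin, had 22647 reads with QKI5 and 54192 reads with GFP. That is 3455 RPM with QKI5 and 2329.6 RPM with GFP, which placed it 21st of the 2218 listed miRNAs with QKI5 and 28th with GFP. miR-425-5p, the guide arm of the other hairpin, had 10329 reads with QKI5 and 50956 reads with GFP. Its levels were 1576 RPM with QKI5 and 2190.5 RPM with GFP, at rank 38 with QKI5 and rank 29 with GFP. In the GFP library the main arms of the neighbours thus stood at consecutive ranks, 139 RPM apart. In the QKI5 library they were 1879 RPM apart.

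The 3p arms rest on far fewer reads. miR-191-3p had 103 reads (15.7 RPM) with QKI5 and 458 reads (19.7 RPM) with GFP. miR-425-3p had 79 reads (12.1 RPM) with QKI5 and 446 reads (19.2 RPM) with GFP. They ranked 306th and 323rd in the QKI5 library, and 257th and 258th in the GFP library. In the GFP library their level intervals overlapped (17.9 to 21.6 RPM for miR-191-3p and 17.4 to 21.0 RPM for miR-425-3p), and so they did in the QKI5 library (12.8 to 19.1 RPM and 9.54 to 15.0 RPM). The order from highest to lowest was the same in both libraries, miR-191-5p, miR-425-5p, miR-191-3p and miR-425-3p, with the last pair not told apart by counting error in either.

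**Figure D1:**
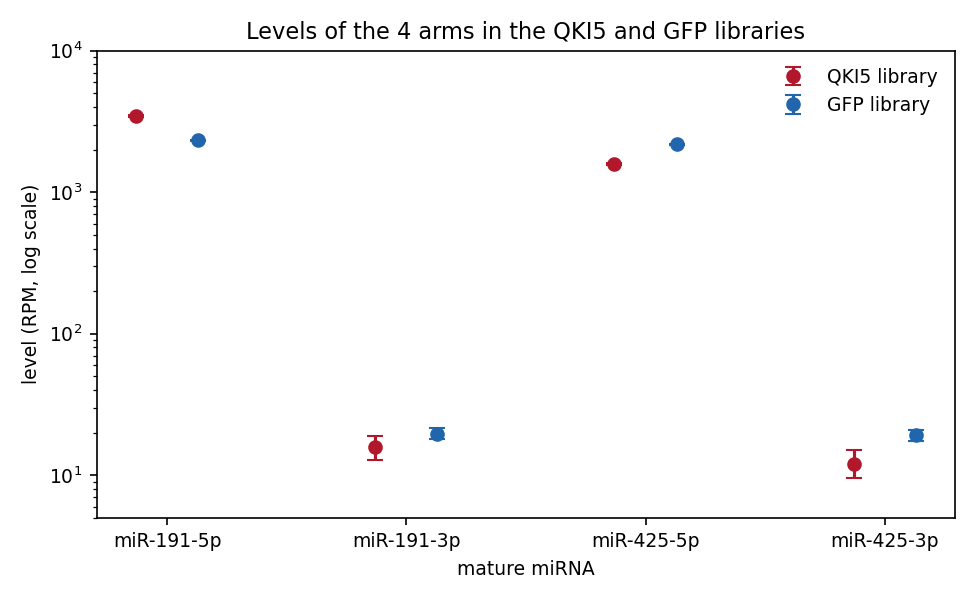
Level in RPM (log scale) of each of the 4 arms in the QKI5 library (red, left of each pair) and the GFP library (blue, right), with exact 95% Poisson counting intervals as bars. miR-191-5p stood higher in the QKI5 library (3455 against 2329.6 RPM), and the other 3 arms stood lower in it.

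The main arms of the neighbours lay on opposite sides of equality. miR-191-5p was 1.48-fold higher in the QKI5 library (95% counting interval 1.46 to 1.51), a log2 ratio of 0.57 and a gain of 1126 RPM. miR-425-5p was 1.39-fold lower in it (1.36 to 1.42), a log2 ratio of -0.47, with a level that fell by 614 RPM. The scaling as deposited touches both values, and under each of the rescalings tried miR-191-5p stayed above 0 (log2 ratio 0.30 to 0.72) and miR-425-5p below 0 (-0.74 to -0.32). The minor arms were both lower with QKI5. The ratio of miR-191-3p was 0.798 (0.638 to 0.990), with a bound close to 1, and that of miR-425-3p was 0.629 (0.488 to 0.800).

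None of the 4 members was 2-fold apart between the libraries as deposited, although miR-425-3p passed 2-fold lower under quantile normalization (log2 ratio -1.07) and with a linear GC trend removed (-1.09). At that threshold 22% of the 200 most abundant miRNAs differed, 15% higher and 7% lower with QKI5, and 28% of the 400 most abundant, which hold all 4 members. The 30 higher and 14 lower miRNAs of the 200 became 18 and 20 under quantile normalization, and 15 and 28 under a share scaling. There, each column was divided by the share of its listed miRNA reads that fell outside the 10 most abundant miRNAs. That share is relative to each column's own listed sum, so the listed sum still enters the scaling and is not itself preserved by it. The share scaling therefore differs from scaling to the sum of the other miRNAs, which was not tried. In the values as deposited, the counting interval left out a ratio of 1 for all 4 members, but so it did for 80.8% of the 400. With each column rescaled to the sum of its listed miRNAs, the interval of miR-191-3p held 1, at a ratio of 0.889 (0.711 to 1.10). Against the 200 most abundant miRNAs, whose median log2 ratio was 0.06 with the middle 50% from -0.46 to 0.70, miR-191-5p ranked 60th from the highest and miR-425-5p 154th. The value of miR-191-5p lay inside that middle range, and that of miR-425-5p, -0.475, lay just below its lower end of -0.461. A total of 101 of the 200 had a log2 ratio no larger in size than that of miR-191-5p.

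**Figure D2:**
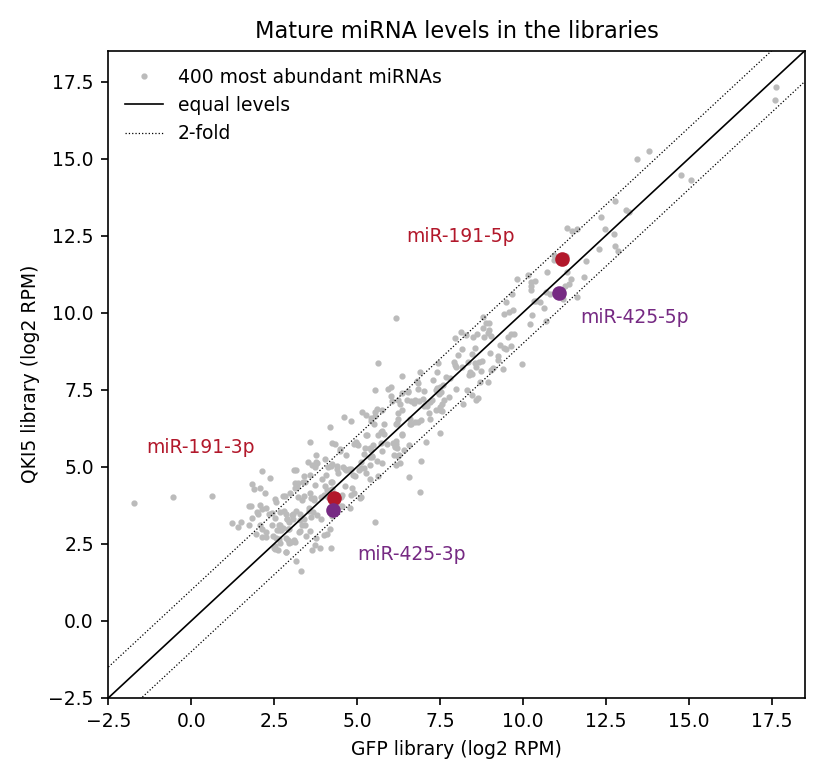
Levels of the 400 most abundant miRNAs in the QKI5 library (vertical axis) against the GFP library (horizontal axis), both in log2 RPM, with the miR-191 arms in red and the miR-425 arms in purple. All 4 arms lie between the dotted 2-fold lines, miR-191-5p above the line of equal levels and the other 3 below it.

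Counting one neighbour against the other within a library removes the library's scaling and depth. In the QKI5 library each miR-425-5p read was matched by 2.19 miR-191-5p reads, against 1.06 in the GFP library. The contrast was 2.06-fold (exact conditional 95% interval 2.01 to 2.12), and 1.996-fold under quantile normalization. Near parity in the GFP library thus stood against an excess of miR-191-5p in the QKI5 library. For the minor arms there were 1.304 miR-191-3p reads per miR-425-3p read with QKI5 and 1.03 with GFP. Their contrast of 1.27-fold had an interval of 0.910 to 1.78 that held 1, so a difference between the 3p neighbours was not detectable at this depth. That interval also ended below the 2.01 at which the interval of the 5p contrast began.

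The cluster's sum differed less between the libraries than its make-up. The 4 arms summed to 5059 RPM in the QKI5 library, against 4559 RPM in the GFP library, or 1.11 times as much (1.10 to 1.12). That ratio was 1.04 under quantile normalization and 1.24 with each column rescaled to its listed sum. Under the share scaling it was 0.924, and so below 1. As a share of the reads on listed miRNAs they held 0.850% with QKI5 and 0.688% with GFP. miR-191 made up 68.6% of the cluster's reads in the QKI5 library (exact binomial 95% interval 68.1% to 69.1%) and 51.5% in the GFP library (51.2% to 51.8%).

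Within each hairpin the balance of the arms was compared in the same way. miR-191 had 219.9 reads of the 5p arm per read of the 3p arm with QKI5 and 118 with GFP, a contrast of 1.86-fold (1.497 to 2.33). The 3p arm was 0.453% of miR-191 reads with QKI5 (0.370% to 0.549%) and 0.838% with GFP (0.763% to 0.918%). miR-425 had 131 reads of the 5p arm per read of the 3p arm with QKI5 and 114 with GFP, a contrast of 1.14-fold (0.898 to 1.47) whose interval held 1. Its 3p share was 0.759% with QKI5 (0.601% to 0.945%) and 0.868% with GFP (0.789% to 0.952%). Thus the 2 arms of miR-425 were lower together, whereas those of miR-191 lay on opposite sides of equality.

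**Figure D3:**
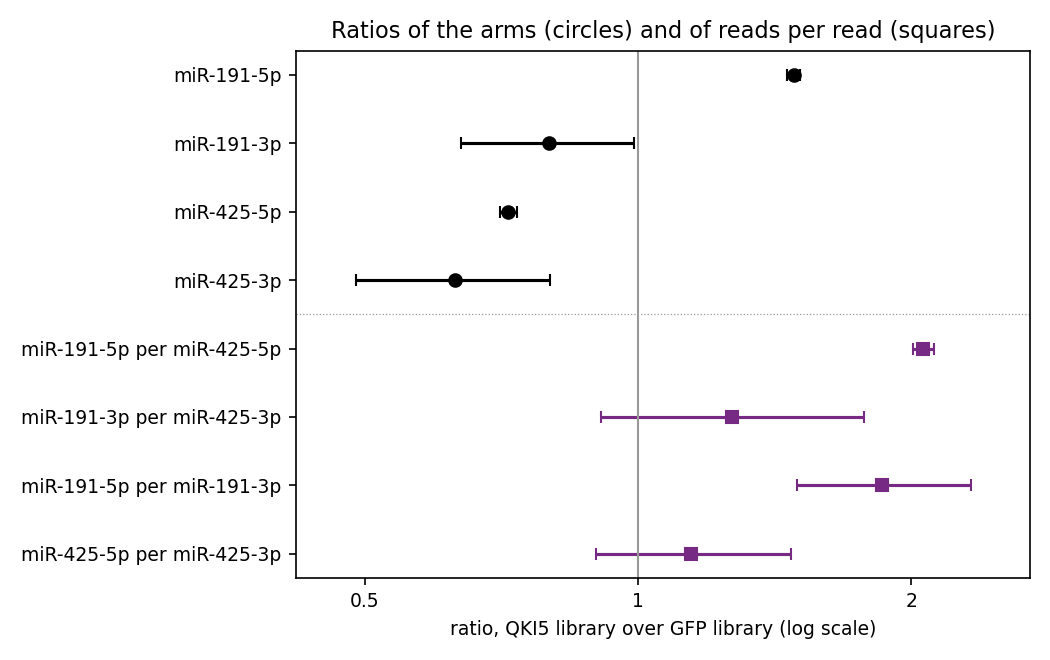
Ratio of the QKI5 library over the GFP library on a log scale, for the level of each arm (circles, upper part) and for the reads of one arm per read of another (squares, lower part), with exact 95% counting intervals. The squares for miR-191-5p per miR-425-5p and for miR-191-5p per miR-191-3p lie above 1, and the intervals of the other 2 squares span 1.

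A 2-fold contrast between neighbours was not unusual in these libraries. The same contrast was computed for other same-strand hairpin pairs within 10 kb whose main arms each come from a single hairpin and had more than 50 reads in both libraries, which left 239 other pairs. Pairs share hairpins and are not independent. Of all 240 pairs, 34.2% were at least 2-fold apart in either direction. The median size over the other pairs was 1.57-fold, with the middle 50% from 1.25 to 2.43, and 79 of the 239 (33.1%) had a contrast at least as large as that of miR-191 and miR-425. Most pairs, 194 of the 239, came from the imprinted 14q32 region on chromosome 14. Outside chromosome 14, 12 of 45 other pairs (26.7%) were at least as large, and of 55 other pairs with no hairpin of the table between them, 17 (30.9%). Main arms on opposite sides of equality, as here, were found in 102 of the 239 other pairs.

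The extremes show the span. The largest contrasts lay at 14q32, with miR-134-5p per miR-154-3p at 8.24-fold (6.88 to 9.85) and miR-381-3p per miR-539-5p at 0.138 (0.123 to 0.155). miR-539-5p per miR-487a-3p followed at 6.37-fold (5.54 to 7.32). The smallest were at 14q32 too, with miR-758-3p per miR-495-3p at 0.997 (0.926 to 1.07), miR-654-3p per miR-487b-3p at 0.994 (0.947 to 1.04) and miR-323b-3p per miR-369-5p at 0.990 (0.905 to 1.08). In MCM7, miR-93 and miR-25 are 133 bases apart, and there were 0.478 times as many miR-93-5p reads per miR-25-3p read in the QKI5 library as in the GFP library (0.460 to 0.497).

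The arm contrasts stood well inside those of other hairpins. Among 77 other hairpins with more than 50 reads on each arm in both libraries, the median size was 1.82-fold. At least as large a contrast as that of miR-191 was found in 35 of the 77, and as that of miR-425 in 65. At 2-fold in either direction, 41.8% of the 79 hairpins were apart, and neither miR-191 nor miR-425 was in the values as deposited. The contrast of miR-191 passed 2-fold under quantile normalization, at 2.33, and with the linear GC trend removed, at 2.31.

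**Figure D4:**
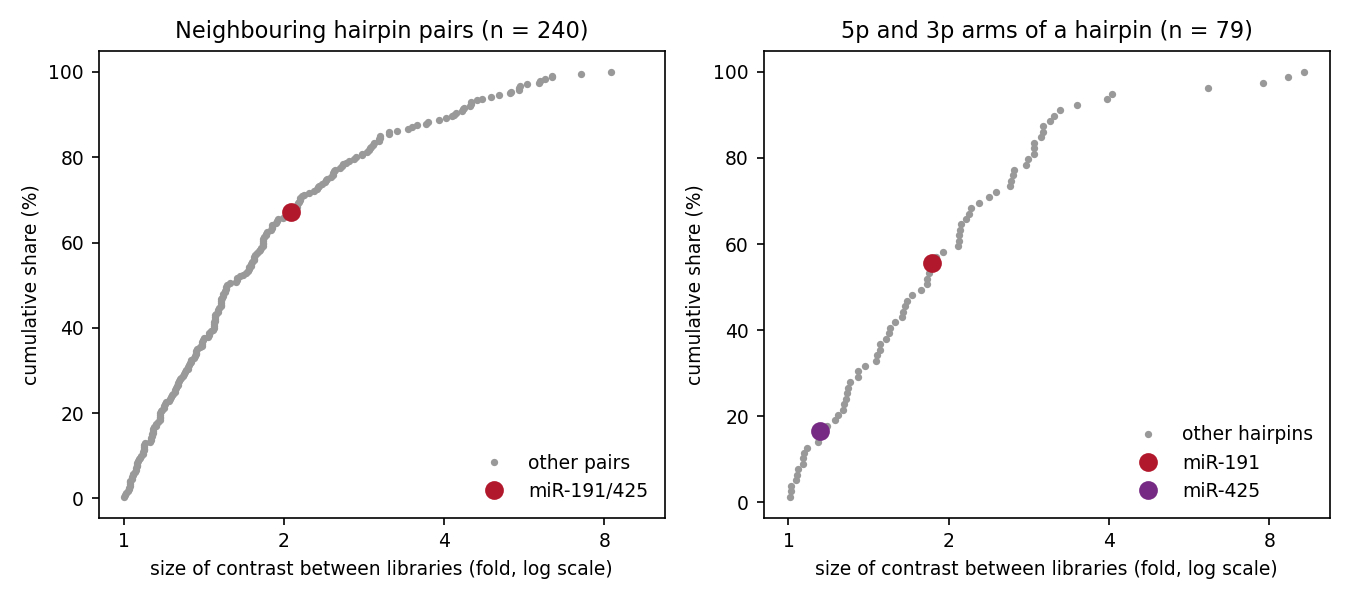
Cumulative share (%) of the 240 neighbouring hairpin pairs (left) and the 79 hairpins with both arms measured (right) against the size of their contrast between the QKI5 and GFP libraries, as a fold in either direction on a log scale. The pair of miR-191 and miR-425 (red, left) sits at 2.06-fold, above the median of the pairs, miR-191 (red, right) near the middle of the hairpins at 1.86-fold, and miR-425 (purple) among the smaller contrasts at 1.14-fold.

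Because both main arms serve as references in RT-qPCR, they were set beside 16 other miRNAs often used that way. Several of these have more than 1 hairpin or an antisense partner, so that their reads cannot be given to 1 gene. They are miR-16-5p, miR-24-3p, miR-103a-3p, miR-26a-5p, miR-30c-5p, miR-92a-3p, let-7a-5p and both arms of miR-423. Of the 16, 11 were above and 5 below equality, with a median log2 ratio of 0.69, against a median of 0.06 over the 200 most abundant miRNAs. At least 2-fold higher with QKI5 were 5 of the 16 and at least 2-fold lower 0, beside 15% and 7% of the 200. Only 15 of the 16 belong to the 200. The exception, let-7i-5p, with 130 reads with QKI5 and 205 with GFP, was among the 5. In the 400 most abundant, 83 were at least 2-fold higher and 29 lower. The count of 5 was 1, hsa-miR-423-3p, under the share scaling, and 2, hsa-miR-423-3p and hsa-miR-24-3p, under quantile normalization. The 16 ranged from miR-423-3p at a log2 ratio of 1.96 and miR-103a-3p at 1.08 to miR-26a-5p at -0.45. miR-93-5p, from MCM7, was the nearest to equality, with 1637 RPM in the QKI5 library, against 1666 RPM in the GFP library (ratio 0.982, 0.961 to 1.004), and turned above equality only when each column was rescaled to its listed sum.

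Within this list of 18, miR-191-5p ranked 10th from the highest and miR-425-5p was the lowest, just under miR-26a-5p, whose interval overlapped its own. Counted against each of the 16 in turn, miR-191-5p was higher with QKI5 against 7 and lower against 9, with a median log2 contrast of -0.12 and a range from -1.39 to 1.02. miR-425-5p was lower against all 16, with a median of -1.17 and a range from -2.44 to -0.02. The direction given for miR-191-5p thus depends on the miRNA it is counted against.

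**Figure D5:**
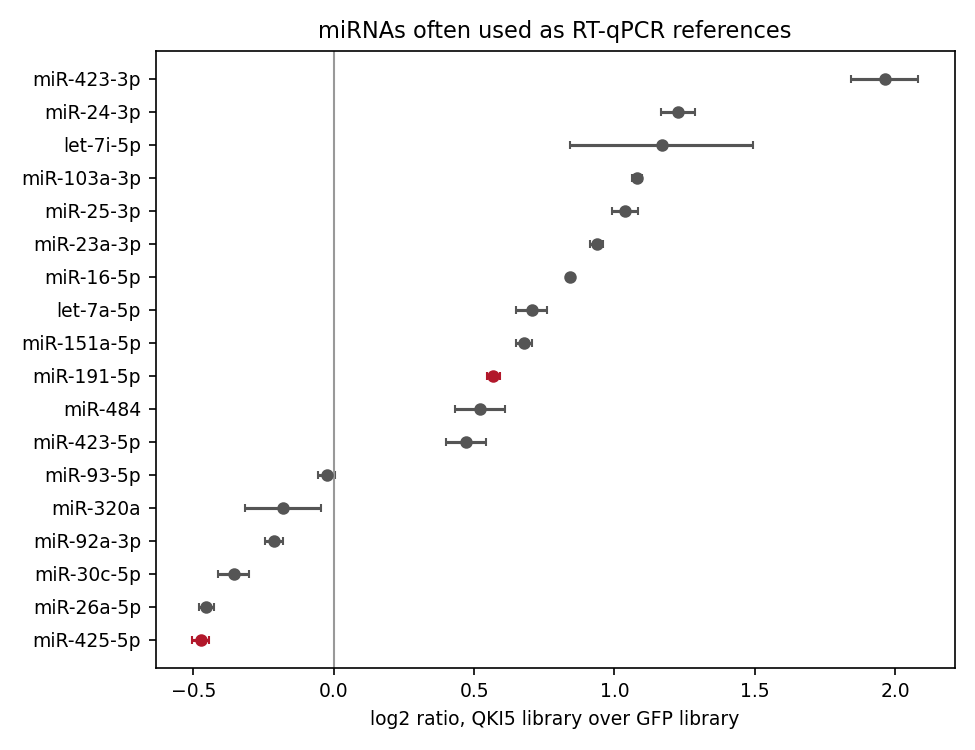
Log2 ratio of the QKI5 library over the GFP library, with exact 95% counting intervals, for 18 miRNAs often used as RT-qPCR references, from highest to lowest. miR-191-5p and miR-425-5p (red) stand at 0.57 and -0.47, on opposite sides of 0, and miR-425-5p is the lowest of the list.

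The miRNAs nearest to each member in level were found by the distance in the plane of the log2 levels of the 2 libraries, which measures likeness over 2 points only. Nearest to miR-191-5p was miR-125a-5p, with 3664 RPM in the QKI5 library, against 2518 RPM in the GFP library (distance 0.14). It was followed by miR-590-5p, at a ratio of 1.71, and miR-23a-3p, at 1.91. Nearest to miR-425-5p was miR-1260a, with 1629 RPM in the QKI5 library, against 2062 RPM in the GFP library (distance 0.10), before miR-136-5p at a ratio of 0.584 and miR-92a-3p at 0.863. For miR-191-3p these were miR-340-3p, with 110 reads with QKI5 and 489 with GFP, then miR-1304-3p and miR-377-5p. For miR-425-3p they were miR-132-3p, with 85 reads with QKI5 and 446 with GFP, then miR-3667-3p and miR-629-3p.

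Around the pair the locus gave few other miRNA reads. Within 1 Mb on either side RefSeq places 9 other hairpins with 12 listed miRNAs, of which 4 had 0 reads in both libraries, a count that allows up to 0.458 RPM with QKI5 and 0.129 RPM with GFP. miR-4443 was the highest, at 4.88 RPM (32 reads) with QKI5 and 5.59 RPM (130 reads) with GFP, a ratio of 0.874 (0.574 to 1.29) whose interval held 1. The other 11 (from the hairpins of miR-2115, miR-6823, miR-711, miR-6824, miR-4793, miR-6890, miR-4271 and miR-5193) had at most 1 read with QKI5 and 4 with GFP.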

How the data were processed

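Per the labels' protocols, small RNA was enriched with a mirVana kit, and libraries from an Ion Total RNA-Seq kit were read on an Ion Proton. Bowtie 0.12.3 and hg19 stand in the submitters' processing notes. Not given in the sources used here were the miRNA annotation, mismatches, use of strand and treatment of reads with several matches. The values the authors deposited are RPM although their name says RPKM: in each column 100.0% of the values above 0 were whole multiples of 1 step within 0.1 of a read, and 1 step was taken as 1 read. Read counts and library totals were recovered from it. The design fixed at the start had left the unit open.

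Log2 ratios used log2(RPM + 0.153), the larger of the smallest values above 0, which understates ratios of rare miRNAs. Folds are plain ratios with exact conditional intervals. Contrasts between arms are ratios of reads per read with the exact interval of the odds ratio. Members and lists were chosen with earlier results of these data known. Named miRNAs were the members, their seed relatives, those within 1 Mb, the 3 nearest in level to each member, the 3 largest and 3 smallest pair contrasts and the RT-qPCR list; the miR-93/miR-25 pair was added after its value was seen. Sequences and hairpin positions are RefSeq's on GRCh38.p14 (1946 of 2218 listed names matched), and the host gene is from GENCODE 29. These positions are the reference's and were not carried over to hg19. Subsets of pairs were chosen after seeing the data. Both kinds of interval were checked on simulated independent Poisson counts. That is the model they assume, so the check covers their computation and not whether they hold for these reads. Python 3.11.15, numpy 2.4.6, scipy 1.17.1, pandas 2.3.3 and matplotlib 3.10.9 were used.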

Additional observations from a re-analysis of the deposited data

How the results depend on the processing

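Every alternative run for an arm left it on its own side of equality. Counting against single reference miRNAs was not among these alternatives, and there miR-191-5p was lower with QKI5 against 9 of 16. Using 0.153 against 1 RPM as pseudocount moved none of the 4 arms beyond its counting interval. With each column rescaled to its listed sum, miR-191-5p and miR-425-5p had log2 ratios of 0.72 and -0.32. These were 0.50 and -0.54 with a trimmed mean set to 0, 0.47 and -0.53 under quantile normalization, and 0.30 and -0.74 under the share scaling. With a linear GC trend removed miR-191-5p was at 0.45. The minor arms miR-191-3p and miR-425-3p were at -0.74 and -1.07 under quantile normalization and at -0.75 and -1.09 without the GC trend, so miR-425-3p passed 2-fold in both settings, while miR-191-3p was at -0.17 when rescaled to the listed sum and at -0.23 with the GFP reads thinned. The GC trend was not run for miR-425-5p. Quantile normalization gave contrasts of 1.996 for miR-191-5p per miR-425-5p, just under 2-fold, and 2.33 for miR-191-5p per miR-191-3p, which was 2.31 without the GC trend and so past 2-fold in both settings, and 22 other hairpins then had an arm contrast at least as large as that of miR-191.

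The counts higher and lower with QKI5 were 30 and 14 among the 200. They became 18 and 20 under quantile normalization and 15 and 28 under the share scaling. Among the 400 they were 83 and 29, with no filter 475 and 145, and at 1.5-fold 59 and 40. An exact binomial test on the reads, with Benjamini-Hochberg adjustment at 0.05, was added after seeing the data. It called 290 higher and 136 lower of 1995 with a read (21.4% in all), and 3 of the 4 members. All 4 members are among the 400, where 80.8% of the counting intervals left out 1 in the values as deposited. The test compares these 2 libraries, not the conditions. The number of other RT-qPCR miRNAs at least 2-fold higher with QKI5 was between 1 and 6 over these settings, applied to them after seeing the data, against 5 as deposited. Of the 110 alternative values for the other RT-qPCR miRNAs, 1 changed sign, that of miR-93-5p to 0.13 when rescaled to the listed sum. Over the 200, these settings moved all log2 ratios by 0.16 (listed sum) or -0.26 (share scaling) and their median by -0.13 (quantile normalization). No paired analysis was possible because there was 1 library per group, and no library could be left out. Depth limits the 3p arms, with 79 and 103 reads in the QKI5 library.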
